A study of Mus musculus with 2040 samples.

Results

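The Hedgehog pathway genes Ptch1, Gli1, Gli2, Gli3, Smo, Boc, Cdon and Hhip were followed in astrocytes of 3 mouse brain regions. The members were taken by name, as 8 of the 32245 gene columns of a single-cell expression table, and their levels and the shares of cells with their reads were described in astrocytes by tissue, in cortical oligodendrocytes and in neurons. The study delivered adeno-associated viral vectors (AAVs), each carrying 1 enhancer or promoter that drives the yellow fluorescent protein SYFP2, to C57Bl/6J mice, sorted single SYFP2-positive brain cells and sequenced the polyA RNA of each. Of its 47 mice and 2040 cells, 41 mice gave cells of VISp (primary visual cortex), 4 of MB/HB (midbrain and hindbrain) and 2 of CBX (cerebellar cortex). The sorted cells are those in which a vector was active, and the ages of the mice and the time after injection are not given in the sources used here.

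Cells were sorted into classes by clustering without any gene of the pathway and named from marker genes. Astrocyte-like clusters held 968 cells: 739 of VISp (19 mice, 12 to 46 cells each), 32 to 41 in each of the 4 MB/HB mice and 81 of CBX (2 mice). The VISp astrocytes came from 12 vectors: eHGT_373m, eHGT_374m, eHGT_376h, eHGT_380h, eHGT_385m, eHGT_386m, eHGT_387m, eHGT_390h, eHGT_390m, 3xCore2(390m), ProB12 and GFAP_promoter. The MB/HB astrocytes came from eHGT_381h (mice A and B) and MGT_E160m (mice C and D), and the CBX astrocytes from eHGT_375m (mice A and B), where letters follow the order of the deposited mouse numbers within a tissue. Each vector was used in 1 tissue, so effects of the vector and of the tissue cannot be told apart. Of the 941 VISp oligodendrocyte-like cells, 22 mice gave at least 10, from 15 vectors: eHGT_361h, eHGT_391h, eHGT_395h, eHGT_396h, eHGT_396m, eHGT_397m, eHGT_400h, eHGT_400m, eHGT_401h, eHGT_403h, eHGT_405m, eHGT_409h, eHGT_410m, eHGT_641m and MBP_promoter. The 84 VISp neuron-like cells were sorted from mice given these same vectors or other VISp vectors, and 3 mice gave at least 10 of them, 1 with eHGT_374m and 2 with MBP_promoter. MB/HB neuron-like cells numbered 15.

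The labelled tissues and classes were checked against their markers. The summed level of 12 astrocyte markers was 29510 to 39551 CPM (read counts scaled to a sum of 1000000 per cell) in the VISp astrocyte-like mice, 35407 to 42830 CPM in MB/HB and 32120 to 33252 CPM in CBX, against 194.7 to 1268 CPM in VISp oligodendrocyte-like mice. Lhx2, a transcription factor of the forebrain, was at 137.6 to 281.02 CPM in VISp astrocytes, at most 0.726 CPM in MB/HB and at most 10.58 CPM in CBX. Zic1, a transcription factor of the dorsal hindbrain and cerebellum, was at 62.8 and 66.8 CPM in CBX and at most 1.94 CPM in VISp. VISp astrocytes fell mainly into clusters 1, 2 and 9, MB/HB astrocytes into cluster 4 and CBX astrocytes into cluster 7, whose leading genes include 4 of the 5 markers listed for Bergmann glia, the specialised astrocytes of the cerebellar cortex. Median depth was 431572 reads per cell in VISp, 410437 in MB/HB and 375425 in CBX astrocytes, while the median number of genes detected was 4326, 3938.5 and 5323. RNA of another class was found in 28 VISp (3.789%), 18 MB/HB (12.16%) and 3 CBX (3.704%) astrocyte-like cells. Among the other VISp classes, 63 oligodendrocyte-like (6.695%) and 16 neuron-like cells (19.05%) held such RNA. Their median numbers of genes detected were 4404 and 8523. The part of these RNAs and gene numbers in the shares of neurons with reads was not tested. The summed level of 12 oligodendrocyte markers in astrocyte-like cells was 1935 to 2224 CPM in the CBX mice, 838.6 to 6262 CPM in MB/HB and 171.1 to 1311 CPM in VISp. Endothelial and mural markers reached 1211 and 1286 CPM in MB/HB mouse B, against at most 26.6 and 98.2 CPM in VISp mice, and the part of these RNAs in the tissue differences was not tested.

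In the Hedgehog pathway a secreted ligand such as Sonic hedgehog (Shh) binds Patched 1 (Ptch1) with help from the co-receptors Boc, Cdon and Gas1, which frees Smoothened (Smo) from inhibition and lets GLI transcription factors activate their targets. Gli1 and Ptch1 are themselves targets, so that their RNA is a commonly used readout of pathway activity, whereas Gli3 acts largely as a repressor when no ligand is bound and Gli2 mainly as an activator. Hhip binds the ligands and limits their reach. In the adult brain Shh is known mainly as a neuronal product, made by Purkinje neurons in the cerebellum, and astrocytes are among the cells known to respond to it.

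Ptch1, Gli2 and Gli3 carried the differences between tissues with the smallest adjusted p-values among the members. The 250 bases before 1 RefSeq start of each (build GRCm38.p6, 5′ to 3′) are shown. They let a reader see whether these bases hold the motif bound by GLI factors. Capitals mark GACCAC, the first 6 letters of the GLI motif GACCACCCA.
Ptch1, chr13:63565736-63565985, minus strand: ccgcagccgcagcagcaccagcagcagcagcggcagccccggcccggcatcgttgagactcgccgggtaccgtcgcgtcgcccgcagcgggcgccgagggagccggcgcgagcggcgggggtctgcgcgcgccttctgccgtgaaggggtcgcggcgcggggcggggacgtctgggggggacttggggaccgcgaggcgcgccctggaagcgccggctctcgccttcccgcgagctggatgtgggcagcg
Gli2, chr1:119053620-119053869, minus strand: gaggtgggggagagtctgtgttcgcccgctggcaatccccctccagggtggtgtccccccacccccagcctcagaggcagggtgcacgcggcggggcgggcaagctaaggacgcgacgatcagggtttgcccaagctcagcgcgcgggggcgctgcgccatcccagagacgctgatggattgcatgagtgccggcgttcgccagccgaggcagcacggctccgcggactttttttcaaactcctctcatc
Gli3, chr13:15463473-15463722, plus strand: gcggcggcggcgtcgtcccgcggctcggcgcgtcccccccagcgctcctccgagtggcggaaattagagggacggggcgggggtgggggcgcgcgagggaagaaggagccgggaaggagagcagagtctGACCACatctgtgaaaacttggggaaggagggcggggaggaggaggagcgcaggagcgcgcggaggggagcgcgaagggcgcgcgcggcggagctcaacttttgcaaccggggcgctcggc
Of the 8 members, 6 were found in the RefSeq promoter table, and GACCACCCA was searched on both strands of their 250 bases with no mismatch. No match was found in these 6 windows, and 74 of all 32851 windows of that length (0.225%) held it. GACCAC occurred once, in the Gli3 window, and in 9.64% of all windows. These letters describe the windows shown and nothing beyond them. In mm10, per RefSeq (GRCm38.p6), Ptch1 lies on chromosome 13 at 63508328 to 63573460, Gli3 on chromosome 13 at 15463723 to 15730026, Gli2 on chromosome 1 at 118834061 to 119054405 and Gli1 on chromosome 10 at 127329882 to 127341579. Smo lies on chromosome 6 at 29735497 to 29761366, Boc on chromosome 16 at 44485045 to 44558870, Cdon on chromosome 9 at 35421528 to 35507652 and Hhip on chromosome 8 at 79965850 to 80058060. On the minus strand the Ptch1 and Gli2 windows lie inside these spans, so the starts used there are not the outermost ones. The Gli3 window lies directly before its span. GENCODE vM21, the other annotation used, places some of these gene ends elsewhere. In it the Ptch1 window lies in introns of longer Ptch1 isoforms, and the Gli2 window in no annotated transcript. The Gli3 window lies in introns of longer Gli3 isoforms and in an exon of the antisense gene Gm6556.

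Levels below are the mean CPM over the cells of a class in 1 mouse, and a fold change is a difference between tissues of log2(mean CPM + 1), which understates the change of low genes. Differences between tissues were tested with limma on 3632 genes, the mouse being the replicate, and a gene passed at a Benjamini-Hochberg adjusted p below 0.05. All 8 members entered the test. They and the further lists were chosen with earlier results of these data known. Their shares are therefore set beside those of all genes as a description only. Between CBX and VISp astrocytes, 4 members passed: Ptch1 was higher and Gli2, Gli3 and Boc were lower in CBX, against 11.8% of all genes tested (5.7% higher, 6.11% lower). Between MB/HB and VISp, Ptch1 was higher and Gli3 and Hhip were lower in MB/HB, that is 3 members against 13.6% of genes (6.66% higher, 6.97% lower). Between CBX and MB/HB, Gli2 and Boc were lower in CBX, that is 2 members against 9.77% of genes (4.79% higher, 4.98% lower). The median log2 fold change of the members was -0.30, 0.71 and -0.71 in the 3 contrasts, where that of all genes tested was -0.00, -0.05 and 0.03. In MB/HB the members' median lay above 0 although 2 of the 3 that passed were lower. The 3 contrasts share mice, so their values are given side by side. Where the levels of mice of different tissues are said below not to overlap, the share of all genes that do the same was not counted.

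**Figure D1:**
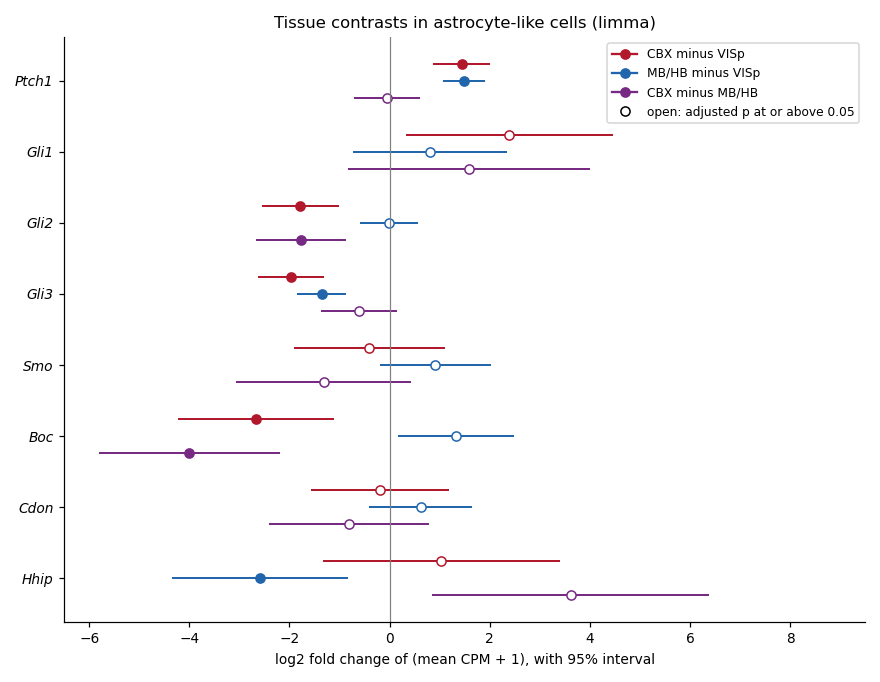
Log2 fold change of (mean CPM + 1) of the 8 members between tissues in astrocyte-like cells (x axis), with 95% intervals from limma over 19 VISp, 4 MB/HB and 2 CBX mice. Filled points passed an adjusted p of 0.05: Ptch1 lies to the right in both comparisons with VISp, Gli3 to the left in both.

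Ptch1, the ligand-binding receptor that holds Smo inactive, was higher outside the cortex. Its level per mouse ran from 56.7 to 162.3 CPM in the 19 VISp mice, with a median of 102.2 CPM. The MB/HB mice A, B, C and D had 332.5, 270.5, 243.1 and 271.1 CPM. The CBX mice A and B had 268.9 and 267.4 CPM. Every MB/HB and every CBX mouse lay above every VISp mouse. The log2 fold change was 1.49 ± 0.20 (SE; 2.81-fold) for MB/HB against VISp (limma, adjusted p = 1.41e-06) and 1.44 ± 0.27 (2.71-fold) for CBX against VISp (adjusted p = 0.000199). CBX and MB/HB differed by -0.05 with an interval of -0.69 to 0.59, which the test did not separate (limma, adjusted p = 0.9751). Against the 16 VISp mice on plates with the AB prefix, which all MB/HB and CBX mice share, Ptch1 differed by 1.46 and 1.41 log2 units, and against the 13 VISp mice with cells on the same plates by 1.47 and 1.42.

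The share of astrocytes with Ptch1 reads was 62.7% in VISp (exact 95% interval 59.1 to 66.2%), 90.5% in MB/HB (84.6 to 94.7%) and 95.1% in CBX (77 of 81 cells, 87.8 to 98.6%). These intervals are Clopper-Pearson intervals and cover counting error only. The median level over cells, those without reads included, was 21.3 CPM in VISp, 212.8 CPM in MB/HB and 261.7 CPM in CBX. In VISp oligodendrocytes 33.5% of cells had reads, and the level per mouse ran from 10.1 to 72.6 CPM around a median of 25.7 CPM. The upper end of that range overlapped the lowest VISp astrocyte mice. VISp neurons had 6.01, 6.45 and 7.13 CPM in the 3 mice.

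**Figure D2:**
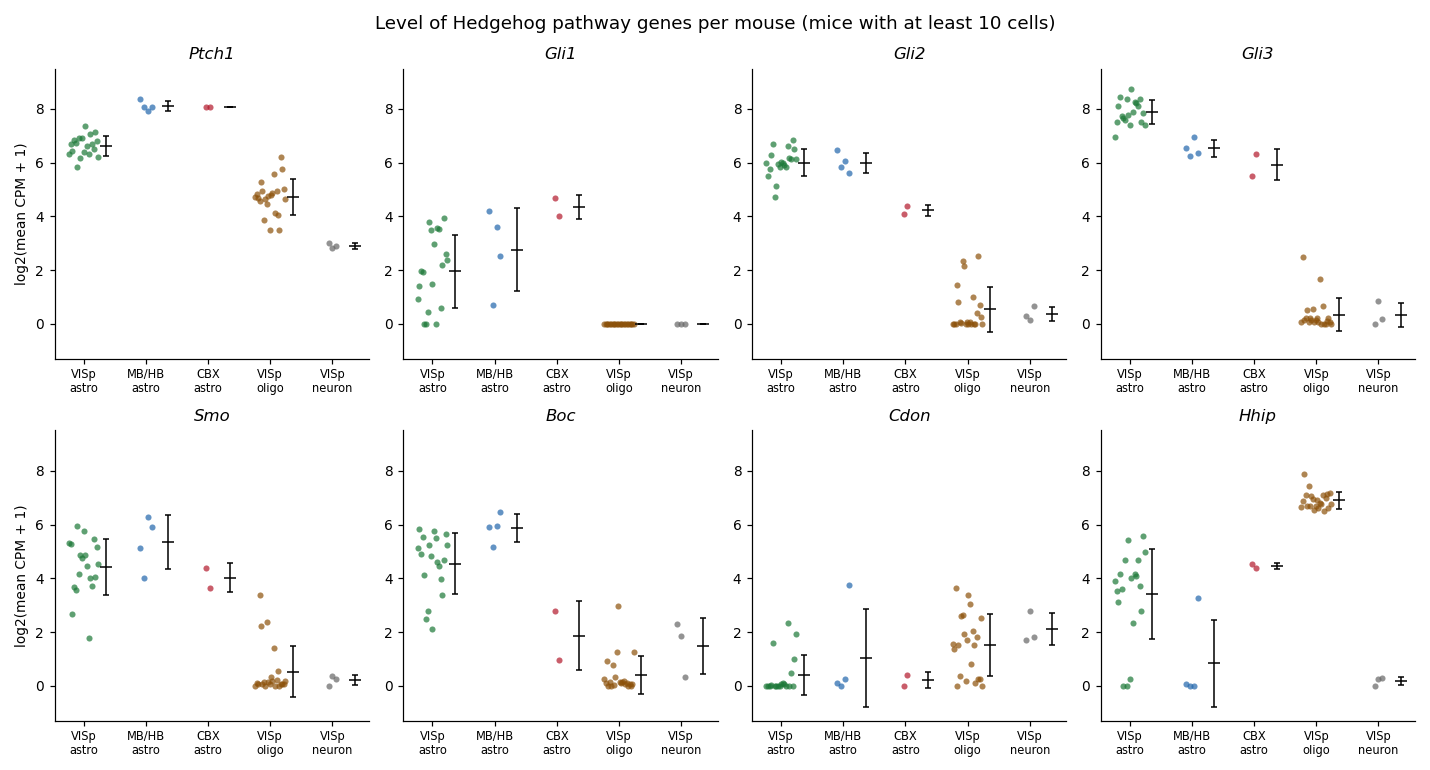
Level of each member, log2(mean CPM + 1) on the y axis, in astrocyte-like cells of VISp (19 mice), MB/HB (4) and CBX (2) and in VISp oligodendrocyte-like (22) and neuron-like (3) cells. Points are mice, bars are the mean and SD. Gli1 is at 0 in every oligodendrocyte mouse, and Hhip is highest there.

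Gli1, the activator that is itself a target of the pathway, was found in few cortical astrocytes and in many cerebellar ones. Reads were present in 59 of 739 VISp astrocytes (7.98%, exact interval 6.13 to 10.18%), in 15 MB/HB astrocytes (10.1%, 5.78 to 16.2%) and in 37 of 81 CBX astrocytes (45.7%, 34.6 to 57.1%). The CBX mice had 51.2% and 39.5%, and the VISp mice 0 to 23.5%, so that both CBX mice lay above every VISp mouse. Among all genes tested, the share of cells with reads lay above every VISp mouse in both CBX mice for 18.1% of genes and below for 2.92%. Of the members, Gli1 and Ptch1 were in the first set and none in the second. CBX cells had more genes detected at a lower depth than VISp cells, and the part of this in the Gli1 share was not tested. With each cell thinned to 200000 reads the Gli1 share was 6.99% in VISp, 9.02% in MB/HB and 41.01% in CBX, and with at least 10 CPM asked for it was 5.14%, 7.43% and 29.6%.

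The level of Gli1 per mouse was 24.4 and 15.4 CPM in CBX, against 0 to 14.2 CPM in VISp with a median of 2.86 CPM and 3 mice at 0. The MB/HB mice had 17.6, 0.639, 11.01 and 4.79 CPM, a range that overlapped both other tissues. Mouse A, the highest of them, also gave 6 cells of cluster 7 and had 2650 CPM of summed Bergmann glia markers, against at most 510.2 CPM in the other MB/HB mice and 14033 and 14652 CPM in CBX. This sum is not particular to Bergmann glia. It was 4879 to 8779 CPM in VISp oligodendrocyte-like mice, where its gene Sept4 was at 4825 to 8734 CPM. Without those 6 cells the Gli1 level of mouse A was 10.4 CPM, and all MB/HB mice then lay below both CBX mice. The CBX mice kept their cells of cluster 7, where 47.6% of cells had Gli1 reads. That order thus depends on which cells were left out, and no conclusion is drawn from it. The CBX minus VISp difference of 2.39 ± 1.005 (SE) log2 units did not pass (limma, adjusted p = 0.138), nor did MB/HB minus VISp at 0.81 ± 0.74 (limma, adjusted p = 0.555). The first passed in 2 of 23 alternatives. With a pseudocount of 10 CPM it was 1.07 (limma, adjusted p = 0.0306), and 12.1% of all genes passed. When log2(CPM + 1) was averaged over cells instead, the CBX difference was 1.69 and passed (limma, adjusted p = 2.59e-07), but 27.2% of all genes then passed and 86.5% of those were higher in CBX, where the mean of CPM gives 48.3%. The same setting passed 29.5% of genes between CBX and MB/HB, 87.7% of them higher in CBX in place of 49.01%, and moved the median of all genes to 0.116 and 0.204 in the 2 contrasts. In cells with reads the median level was 18.3 CPM in VISp and 23.9 CPM in CBX, and it was 61.2 CPM over the 15 MB/HB cells with reads. Gli1 had no reads in 941 VISp oligodendrocytes, which by the rule of 3 cells of the total allows a share of up to 0.319%, and reads in 1 of 84 VISp neurons. Exons of Gli1 overlap those of the antisense genes Gm47200 (5.31% of its exon bases) and Arhgap9 (1.24%), and whether the counting used strand is not given in the sources used here.

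**Figure D3:**
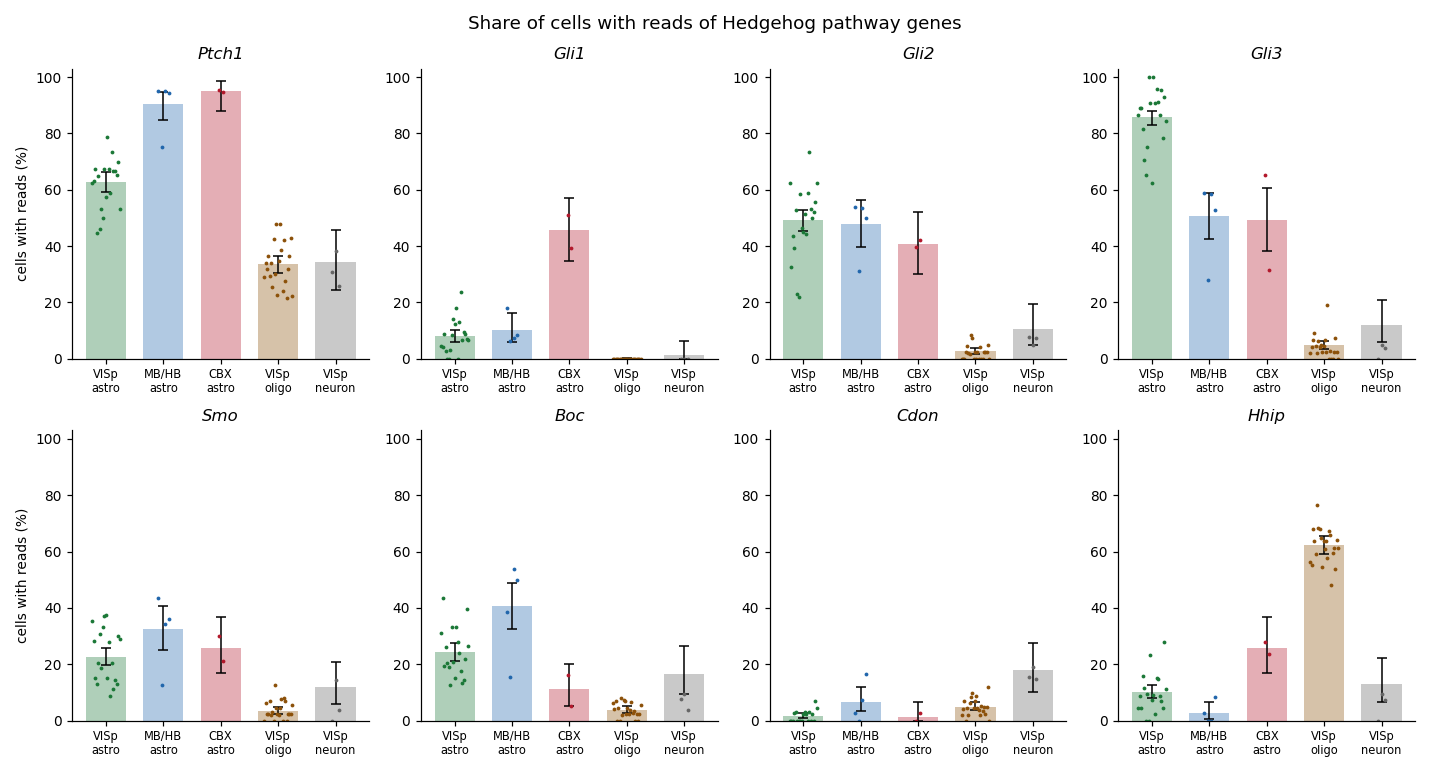
Share of cells with reads of each member (y axis, percent) by tissue and class. Bars are pooled shares with exact 95% intervals, points are mice with at least 10 cells. Gli1 reaches 45.7% in CBX astrocytes and 7.98% in VISp astrocytes, and Gli3 85.7% in VISp astrocytes.

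Gli3, the GLI factor known mainly as a repressor, showed its highest level in cortical astrocytes. Its level ran from 121.8 to 423.3 CPM in VISp mice, with a median of 228.9 CPM. The MB/HB mice had 91.9, 75.5, 122.6 and 81.3 CPM, and the CBX mice 44.5 and 79.8 CPM. The highest MB/HB mouse, C, just overlapped the lowest VISp mouse, and both CBX mice lay below all VISp mice. The log2 difference CBX minus VISp was -1.96 ± 0.31 (SE; limma, adjusted p = 2.02e-05), and MB/HB minus VISp was -1.36 ± 0.23 (adjusted p = 6.57e-05). The difference between CBX and MB/HB, -0.61 with an interval of -1.35 to 0.14, did not pass (limma, adjusted p = 0.363), and without cells that carry RNA of another class it did (-1.25, adjusted p = 0.0178). Reads were found in 85.7% of VISp, 50.7% of MB/HB and 49.4% of CBX astrocytes. Gli3 was the member whose share in every MB/HB mouse was below every VISp mouse, which held for 1.46% of genes. No member's share in every MB/HB mouse was above every VISp mouse, against 0.909% of genes. Of the CBX mice, A had the larger share (65.1% of cells against 31.6%) and, over all cells, the lower level. Cluster 7 held 41 of the 43 cells of A and 37 of the 38 of B. Within it the level was higher in A, at 46.6 against 34.8 CPM. The part of the cells outside cluster 7 in the difference between CBX and MB/HB was not tested. Antisense exons of Gm6556 cover 1.96% of the Gli3 exon bases.

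Gli2, known mainly as an activator, was lower in CBX than in either other tissue. VISp mice had 25.5 to 113.5 CPM (median 62.9), MB/HB mice 87.2, 56.7, 66.5 and 47.6 CPM and CBX mice 15.9 and 19.7 CPM. Both CBX mice lay below every mouse of the other tissues. CBX minus VISp was -1.78 ± 0.37 (SE; limma, adjusted p = 0.000732) and CBX minus MB/HB was -1.77 ± 0.43 (adjusted p = 0.0054), while MB/HB minus VISp was -0.01 with an interval of -0.56 to 0.55 (limma, adjusted p = 0.991). The shares of cells with Gli2 reads were closer, at 49.1% in VISp, 48.0% in MB/HB and 40.7% in CBX. In cells with reads the median was 89.3 CPM in VISp, 80.4 CPM in MB/HB and 23.7 CPM in CBX. With log2 values averaged over cells, the 2 CBX differences were -1.17 and -1.05 and did not pass (limma, adjusted p = 0.124 and 0.249), and without CBX mouse A the difference from MB/HB did not pass (-1.63, adjusted p = 0.0949).

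Gli2 and Gli3 were the members whose astrocyte mice all lay above all oligodendrocyte mice in VISp, which held for 7.85% of the genes compared. Their medians over oligodendrocyte mice were 0.0522 and 0.107 CPM. Hhip was the member for which all oligodendrocyte mice lay above all astrocyte mice, as was found for 5.5% of genes. The classes were rebuilt from the same cells, so these differences are descriptions without a test.

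Smo, the transducer that Ptch1 inhibits, passed in no contrast between tissues. VISp mice had 2.39 to 60.5 CPM (median 22.02), MB/HB mice 34.3, 15.02, 77.2 and 59.4 CPM and CBX mice 20.1 and 11.4 CPM, and the 3 ranges overlapped. The log2 differences from VISp were -0.40 in CBX, with an interval of -1.89 to 1.08, and 0.92 in MB/HB, with an interval of -0.18 to 2.02 (limma, adjusted p = 0.85 and 0.305). Reads were found in 22.7% of VISp, 32.4% of MB/HB and 25.9% of CBX astrocytes, against 3.51% of VISp oligodendrocytes and 11.9% of VISp neurons. With at least 10 CPM asked for, the VISp shares were 19.5% of astrocytes, 0.85% of oligodendrocytes and 2.38% of neurons. The Smo level in the 3 VISp neuron mice was near the floor, at 0 to 0.274 CPM.

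Boc, a co-receptor that presents the ligand to Ptch1, was lower in CBX than in either other tissue. VISp mice had 3.36 to 55.4 CPM (median 27.7), MB/HB mice 59.6, 34.6, 60.7 and 86.6 CPM and CBX mice 5.82 and 0.956 CPM. The CBX mice lay below all MB/HB mice and overlapped the lowest VISp mice. CBX minus MB/HB was -4.00 ± 0.87 (SE; limma, adjusted p = 0.00188), and CBX minus VISp was -2.67 ± 0.75 (adjusted p = 0.0145). The call against VISp rested on CBX mouse B: without it the difference was -1.77 (limma, adjusted p = 0.48), and the call against MB/HB was lost as well (-3.10, adjusted p = 0.127). Against the 13 VISp mice that share plates the difference from VISp was -2.42 (limma, adjusted p = 0.0614), and with linked plates as a block it was -2.44 (adjusted p = 0.0526). It did not pass with a pseudocount of 10 CPM either (-1.38, limma, adjusted p = 0.0638), nor with log2 values averaged over cells (-0.88, adjusted p = 0.196). MB/HB minus VISp, at 1.33 ± 0.56, did not pass (limma, adjusted p = 0.12). Shares of cells with reads were 24.2% in VISp, 40.5% in MB/HB and 11.1% in CBX.

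Cdon, the paralogous co-receptor, was near the floor in astrocytes: 12 of 739 VISp cells (1.62%), 10 MB/HB cells (6.76%) and 1 of 81 CBX cells (1.23%) had reads. Of the VISp mice, 10 were at 0 and the highest was at 4.07 CPM. The MB/HB mice had 0.0653, 0, 0.189 and 12.5 CPM, the last in mouse D. No contrast passed. VISp oligodendrocytes had reads in 4.99% of cells and VISp neurons in 17.9% (15 of 84).

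Hhip, the ligand-binding antagonist, had its highest levels in oligodendrocytes. Reads were found in 62.4% of VISp oligodendrocytes at 90.5 to 236.8 CPM per mouse, around a median of 113.6 CPM. In VISp astrocytes they were found in 10.3% of cells (76 of 739) at 0 to 46.5 CPM, around a median of 13.9 CPM. The CBX astrocyte mice had 22.1 and 19.7 CPM with reads in 27.9% and 23.7% of cells. The MB/HB mice had 0.0418, 0, 0 and 8.70 CPM, with reads in 4 cells (2.70%). MB/HB minus VISp was -2.58 ± 0.85 (SE; limma, adjusted p = 0.0404). Leaving out mouse A, B or C ended the call (adjusted p = 0.121, 0.149 and 0.12 in limma), as did fits against AB plates only (-2.56, adjusted p = 0.0676) or shared plates only (-2.53, adjusted p = 0.109). It was also lost with a pseudocount of 10 CPM (-0.96, limma, adjusted p = 0.0846), with no filter on low values (-2.58, adjusted p = 0.068) and with log2 values averaged over cells (-0.45, adjusted p = 0.17). The call held in 15 of 23 alternatives. CBX minus MB/HB was 3.62 ± 1.34 and did not pass (limma, adjusted p = 0.09).

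The MB/HB mouse with the highest Hhip and Cdon, D, also carried the most oligodendrocyte RNA. The summed level of 12 oligodendrocyte markers in its astrocyte-like cells was 6262 CPM, against 839 to 1514 CPM in the other MB/HB mice, and 13 of its 36 cells held RNA of another class. Without such cells the mean log2 level of Hhip over the 4 mice was 0.29 in place of 0.83, MB/HB minus VISp was -3.33 (limma, adjusted p = 0.00238) and CBX minus MB/HB was 4.08 (adjusted p = 0.0214). The mean of Cdon was 1.03 in place of 1.02. Exons of Gm27820, antisense to Hhip, cover 1.93% of the Hhip exon bases.

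Most astrocytes carried several members at once. The median was 3 of 8 members with reads in VISp, MB/HB and CBX astrocytes, against 1 in VISp oligodendrocytes and neurons. None of the 8 had reads in 3.79% of VISp, 2.70% of MB/HB and 2.47% of CBX astrocytes, and in 20.4% of VISp oligodendrocytes. At least 4 had reads in 22.7% of VISp, 29.7% of MB/HB and 28.4% of CBX astrocytes, and in 0.638% of VISp oligodendrocytes.

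Ptch1 was found at like shares in cells with and without Gli1 reads. In CBX, Ptch1 reads were found in 35 of 37 cells with Gli1 reads (94.6%) and in 42 of 44 without (95.5%), and its mean level was 240.8 and 291.2 CPM. With Ptch1 reads in 77 of all 81 CBX cells, these shares had little room to differ. In VISp the shares were 61.02% of 59 cells and 62.8% of 680 cells, at 88.5 and 103.3 CPM. The exact intervals overlapped in both tissues. For Gli3 in VISp the shares were 94.9% of cells with Gli1 reads (85.9 to 98.9%) and 84.9% of those without (81.9 to 87.5%), and for Gli2 in VISp 64.4% (50.9 to 76.4%) and 47.8% (43.98 to 51.6%). In CBX the Gli3 shares were 48.6% of cells with Gli1 reads and 50% of those without, and its mean level was 33.6 and 84.1 CPM. By mouse, cells with and without Gli1 reads had 33.3 and 56.1 CPM in A, and 33.97 and 109.7 CPM in B. Of the 38 cells of B, 37 lay in cluster 7, where its Gli3 level was 34.8 CPM. Most of the difference in B, which also enters the pooled 84.1 CPM, thus came from outside cluster 7. Median depth was 426754 reads in VISp cells with Gli1 reads and 432292 in those without. The VISp shares pool mice whose own shares ran from 0 to 23.5% for Gli1 and from 21.9 to 73.5% for Gli2. They also pool clusters, of which cluster 9 had 1.85% and 11.1%. The part of mice and clusters in these VISp shares was not tested. Cells of 1 mouse share their source, and no test over cells was made.

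**Figure D4:**
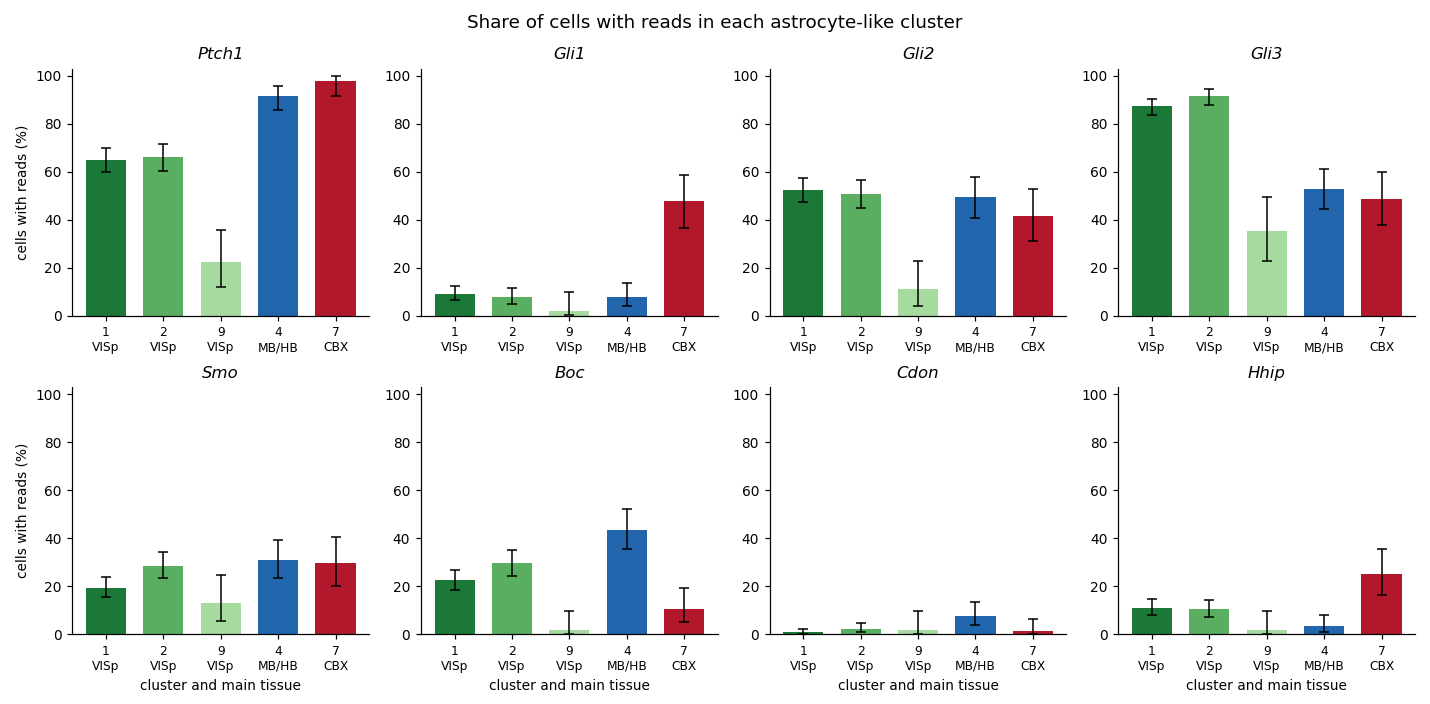
Share of cells with reads of each member (y axis, percent, with exact 95% intervals) in the 5 astrocyte-like clusters, ordered by the tissue that gave most of their cells. Cluster 9 is low for Ptch1 (22.2%), Gli2 (11.1%) and Gli3 (35.2%), and Gli1 reaches 47.6% in cluster 7.

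Of the 3 clusters that held nearly all VISp astrocytes, cluster 9 had the lowest shares of most members. Ptch1 reads were found in 64.96% of cluster 1, 65.99% of cluster 2 and 22.2% of cluster 9 (54 cells, 50 of them from VISp). For Gli3 the shares were 87.2%, 91.6% and 35.2%, for Gli2 52.4%, 50.8% and 11.1%, and for Boc 22.5%, 29.6% and 1.85%. Cluster 9 was as deep as the others, with a median of 435988 reads, but had 2835 genes detected per cell against 4135 and 4743, and the part of this in its low shares was not tested. Its cells came from 19 mice. Without it, Ptch1 differed by 1.40 and Gli3 by -2.02 between CBX and VISp, and each member that had passed did so again in every contrast.

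Among vectors within VISp, no gene passed. The limma F-test over 14 mice of 7 vectors with at least 2 mice each passed 0 of 3374 genes (0%), with 4.83% of genes at an unadjusted p below 0.05 and none of the members among them. The lowest member p was that of Boc, at 0.226 in that limma F-test. Each of these vectors had 2 mice, so the test could miss differences, and it does not show that the vectors are alike. Mice given the same vector also varied: the 2 mice of eHGT_374m had 56.7 and 133.6 CPM of Ptch1 and 0 and 10.6 CPM of Gli1, and those of eHGT_390m had 79.1 and 162.3 CPM of Ptch1. On SM plates (3 VISp mice) and AB plates (16 mice) the mean log2 level was 6.49 and 6.66 for Ptch1, 7.52 and 7.95 for Gli3 and 1.43 and 2.06 for Gli1, with SDs over the AB mice of 0.40, 0.41 and 1.46.

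The ligands had few or no reads in the cells sorted. Shh had no reads in any VISp, MB/HB or CBX astrocyte, which by the same rule allows shares of up to 0.406%, 2.03% and 3.7%, nor in the 941 VISp oligodendrocytes. Shh had reads in 9 of 84 VISp neurons (10.7%), at 0 to 1.297 CPM in the 3 mice, and in 3 of 15 MB/HB neurons. Ihh was at 0 in all astrocytes, and Dhh had reads in 1 VISp and 1 CBX astrocyte. Among 11 genes for ligands, their release and spread, 7 could be tested and 1 (14.3%) passed in each contrast with CBX, near the 11.8% and 9.77% of all genes, and 0 passed in MB/HB minus VISp. That gene was Gpc5, a glypican of the cell surface, at 937 to 3242 CPM in VISp, 1363 to 2535 CPM in MB/HB and 1.83 and 48.6 CPM in CBX. CBX minus VISp was -7.24 ± 0.50 for Gpc5 (SE; limma, adjusted p = 1.25e-12).

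Among the other receptor-level genes, Gas1 differed between tissues. Gas1, a co-receptor held by a lipid anchor, was lower in MB/HB than in VISp by -1.36 ± 0.39 (limma, adjusted p = 0.0163) and higher in CBX than in MB/HB by 2.30 ± 0.62 (adjusted p = 0.0126). Gas1 reads were found in 58.2% of VISp, 29.7% of MB/HB and 82.7% of CBX astrocytes, against 1.59% of VISp oligodendrocytes.

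Genes that carry the signal from Smo to GLI and genes of the primary cilium, the antenna in which the pathway operates, passed in few contrasts. Of 15 signal transduction genes tested, 0 passed in CBX minus VISp, against 11.8% of all genes. In MB/HB minus VISp 2 (13.3%) passed, near the 13.6% of all genes, and both were lower: Prkar1a, a regulatory subunit of protein kinase A, at -0.55 ± 0.15 (SE; limma, adjusted p = 0.012), and Spop, an adaptor for ubiquitin ligation, at -0.72 ± 0.25 (adjusted p = 0.0484). Prkar1a was also higher in CBX than in MB/HB, by 0.82 ± 0.24 (limma, adjusted p = 0.0237). It was the 1 gene of the 15 (6.67%, against 9.77% of all genes) that passed between these tissues. Sufu, the inhibitor that binds GLI proteins, had medians of 14.98, 21.4 and 13.95 CPM in VISp, MB/HB and CBX and passed in no contrast. Of 10 cilium genes tested, 0 passed in any of the 3 contrasts, and reads of Kif3a, a motor subunit of ciliary transport, were found in 50.7% of VISp, 41.9% of MB/HB and 64.2% of CBX astrocytes.

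Among 17 genes known as targets of GLI factors or of Shh in astrocytes, 13 were tested. In CBX minus VISp 4 were higher and 2 lower, in MB/HB minus VISp 4 were higher and 5 lower, and in CBX minus MB/HB 1 was higher and 2 lower. That is 46.2%, 69.2% and 23.1% of the 13, against 11.8%, 13.6% and 9.77% of all genes. The list was chosen with earlier results of these data known, so these shares are a description and no test of the list. Their median log2 fold changes were 0.51, 0.65 and 0.62. Gria4 and Gria1, subunits of AMPA glutamate receptors, were higher in CBX than in VISp by 9.43 ± 0.91 and 5.97 ± 0.86 (SE; limma, adjusted p = 1.9e-09 and 3.84e-06) and in MB/HB by 7.04 ± 0.67 and 3.85 ± 0.63. Gria1 was also used as a marker of Bergmann glia. Slc1a3, a glutamate transporter, was higher in CBX by 0.95 ± 0.27 and lower in MB/HB by -2.45 ± 0.20, and Sparcl1, a secreted matrix protein, was higher in both, by 1.26 ± 0.22 and 0.65 ± 0.16. Kcnj10, a potassium channel, was higher in MB/HB by 1.76 ± 0.22.

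Ccnd2 and Bcl2 were lower in both CBX and MB/HB than in VISp. Ccnd2, a D-type cyclin, was at 64.8 to 156.9 CPM in VISp, 8.55 to 45.99 CPM in MB/HB and 0.0876 and 0.0940 CPM in CBX. The differences from VISp were -6.57 ± 0.38 in CBX (SE; limma, adjusted p = 1.67e-14) and -2.21 ± 0.28 in MB/HB (adjusted p = 5.16e-07). Bcl2, which limits cell death, differed by -1.42 ± 0.36 and -0.90 ± 0.26, and both passed. Ccnd1 was at 0 in all 4 MB/HB mice and at a median of 9.48 CPM in VISp, and passed in that contrast (limma, adjusted p = 0.00302). Sfrp1, an antagonist of Wnt signals, was at -3.23 ± 0.66 in MB/HB (limma, adjusted p = 0.000734). Nkx2-2, a homeobox factor, had reads in 80.2% of CBX and 14.6% of VISp astrocytes and a CBX minus VISp difference of 2.52 that did not pass (limma, adjusted p = 0.0563).

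**Figure D5:**
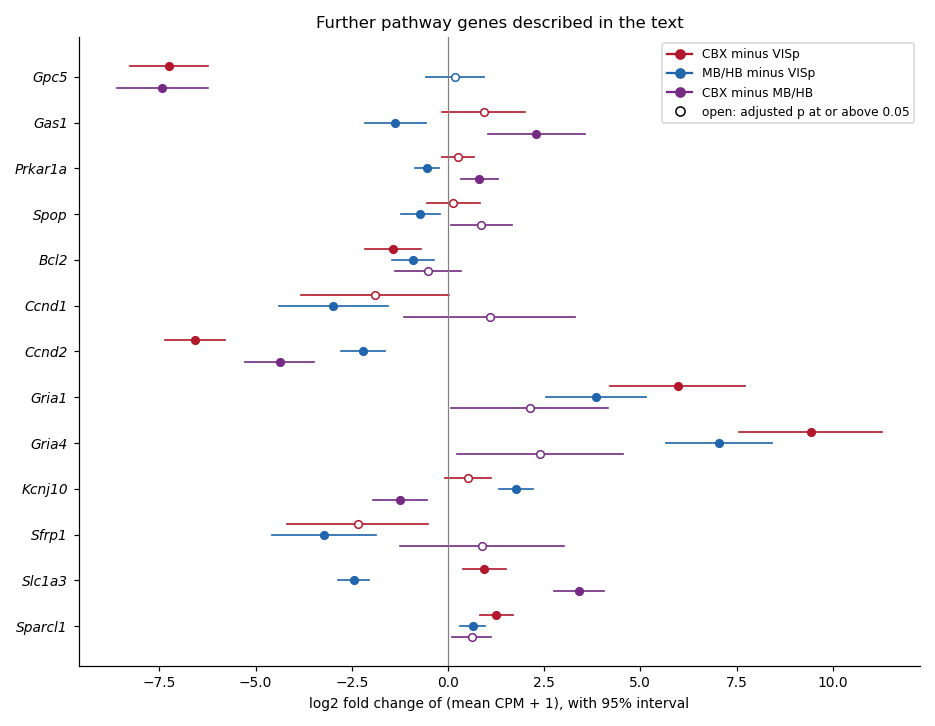
Log2 fold change of (mean CPM + 1), x axis, with 95% intervals from limma, of further pathway genes described in the text, each past the threshold in at least 1 tissue contrast, by list from ligands (Gpc5) to targets (Bcl2 to Sparcl1). Filled points passed an adjusted p of 0.05. Gpc5 and Ccnd2 are lower in CBX than in both other tissues.

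The genes most like each member were ranked by Spearman correlation over 51 units of a mouse and a class (25 astrocyte-like, 22 oligodendrocyte-like and 4 neuron-like), among 3249 genes. These units share libraries and the differences between classes dominate them, so the values are a description. Aqp4, the astrocyte water channel, was closest to Ptch1 (rho = 0.872), Gm2115 to Gli1 (0.849), Fam181a to Gli2 (0.868) and Maml2 to Gli3 (0.861). Lgals3bp was closest to Smo (0.841), Lhfp to Boc (0.852) and Bmp2 to Cdon (0.656). Hhip was closest to Jam3 (0.861) and next to Ermn (0.84), a gene of the myelin sheath.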

How the data were processed

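Single SYFP2-positive cells were sorted and their polyA RNA was sequenced with SMART-seq, per the labels' protocols. STAR and mm10 are named in the submitters' processing notes; whether counting used strand is not given in the sources used here. The deposited table holds CPM, read counts scaled by the authors to a sum of 1000000 per cell. All 9484843 positive values read were whole multiples of 1 read within 0.001 reads (100%), which gave a median of 434102 reads per cell (57873 to 1455022). Deposited values of genes outside the pathway lists are other numbers on the same CPM scale.

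Of 32245 gene columns, 5300 were read: 167 listed genes and 5133 protein-coding genes drawn at random. The remaining 26945 entered only the totals. The members and lists were chosen with earlier results of these data known. Members were taken by symbol, further genes from the 5 pathway lists, and those named passed in a contrast, had a share that a comparison rests on, or are ligands. Genes named for likeness are the 3 closest to a member by Spearman correlation, of which the closest is given. Some listed genes are not reported here.

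Cells were clustered (Leiden, resolution 1, 30 principal components of 2000 variable genes, 15 neighbours) without pathway genes, and clusters were named from marker lists; 24 of 2040 cells stayed unnamed. No doublet caller was run; cells with over 50% of another class's markers were left out in an alternative. The mouse was the replicate. CPM was averaged per mouse (at least 10 cells), log2(mean CPM + 1) was tested with limma where the mean was at least 1 CPM in at least 2 mice, and p-values were adjusted by Benjamini-Hochberg over all genes tested. The steps were tested on simulated data. Each class of a mouse is 1 sample, and p-values measure the spread between these mice. Versions were Python 3.11.15, numpy 2.4.6, pandas 2.3.3, scipy 1.17.1, scikit-learn 1.9.0, leidenalg 0.10.2, igraph 0.11.9, R 4.3.3 and limma 3.58.1.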

Additional observations from a re-analysis of the deposited data

Results flagged for a closer look

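In MB/HB astrocyte-like cells, mouse D (MGT_E160m) lay far above the other 3 mice for 2 members. Its log2(mean CPM + 1) was 3.75 for Cdon and 3.28 for Hhip, and the gap to the next mouse took 0.933 and 0.982 of the range of the 4 mice, where the Dixon limit is passed by chance in about 1 of 20 groups. The same mouse had 13 astrocyte-like cells with RNA of another class and 6262 CPM of summed oligodendrocyte markers; the part of this in both levels was not tested. Without such cells the group mean of Hhip was 0.29 ± 0.55 (SD, n = 4) in place of 0.83 ± 1.63, and that of Cdon was 1.03 ± 1.84 in place of 1.02 ± 1.82.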

How the results depend on the processing

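Ptch1 and Gli3 passed in both contrasts with VISp under all 23 alternatives. Over the 3 contrasts, 17 recomputed fold changes of members lost the call, 9 gained it and 13 changed sign, all 13 from values that had not passed; the others kept direction and call. With log2(CPM + 1) averaged over cells, 27.2% of genes passed in CBX minus VISp and 29.5% in CBX minus MB/HB; Smo in CBX minus VISp was 0.037 and Ptch1 in CBX minus MB/HB 0.60. Leaving out mice in turn, the share of genes passed ran from 6.04 to 13% in CBX minus VISp and from 4.77 to 10.23% in CBX minus MB/HB, lowest without CBX mouse B and next without mouse A (7.18% and 5.52%). The members passed in CBX minus MB/HB then numbered 1 (without either CBX mouse) to 3, and 4 without cells that carry RNA of another class. For vectors within VISp, 0 to 1 genes passed, the 1 without the second eHGT_374m mouse. A lone mouse in an arm was assumed to vary like the others.

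Gli2 in MB/HB minus VISp was 0.032 with classes from the highest marker list, 0.099 without cells that carry RNA of another class, 0.053 with quantile normalization and -0.16 to 0.13 leaving out mice in turn. Cdon in CBX minus VISp was 0.041 without cells that carry RNA of another class and -0.40 to 0.016 leaving out mice; it ran from -0.29 (without MB/HB mouse D) to 0.96 in MB/HB minus VISp and from -1.16 to 0.095 in CBX minus MB/HB. Ptch1 in CBX minus MB/HB was -0.11 to 0.038 leaving out mice and 0.024 on recovered reads. The cause was not tested. Recovered reads, quantile normalization, leaving out cluster 9 and the plate block were chosen after seeing the data. The planned edgeR test was not run; limma on recovered reads summed per mouse passed 11.5%, 13.3% and 9.5% of genes in CBX minus VISp, MB/HB minus VISp and CBX minus MB/HB, against 11.8%, 13.6% and 9.77%. No paired analysis was possible because no mouse gave cells of more than 1 tissue. With linked plates as a block (plates that share a mouse form 1 of 6 sets, 2 of which hold all 3 tissues), 10.3%, 9.55% and 8.95% of genes passed; of the members' calls, Boc in CBX minus VISp was lost (-2.44, limma, adjusted p = 0.0526). With 2 CBX mice and 1 vector there, precision is lowest in CBX.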
